A study of Mus musculus with 6 samples.

Results

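The sterol synthesis and SREBP pathway was followed gene by gene in 6 arrays of mouse bone marrow-derived macrophages (BMDMs). The list held 27 genes: the enzymes that build cholesterol, the proteins that sense sterol and release the transcription factor SREBP-2, and several other SREBP target genes. A gene counted as measured when a probe set of the array was annotated with that gene symbol and no other, and where several probe sets qualified, the one brightest on average was taken. On that rule 24 of the 27 genes were measured, among 30184 genes with 1 symbol and 65956 probe sets in all.

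Cholesterol is made from acetyl-CoA through HMG-CoA, mevalonate and the prenyl diphosphates, which also feed protein prenylation, and then through squalene and lanosterol. When sterol in the endoplasmic reticulum is scarce, SCAP escorts SREBP-2 to the Golgi, where proteases free its active part, which enters the nucleus and switches on the synthesis genes. When sterol is plentiful, INSIG proteins hold SCAP and SREBP-2 in the endoplasmic reticulum, and oxysterols activate the liver X receptors, which switch on cholesterol export, a route much studied in macrophages that take up dying cells.

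Marrow cells of C57BL/6J mice were grown into BMDMs in 20 ng/ml macrophage colony-stimulating factor and given rGAS6, the recombinant form of a protein that activates the receptor MerTK. Per the labels, RNA was taken 24 h after hypoxia/reoxygenation (HR), in which cultures lose and regain oxygen as ischemic tissue does. There were 3 arrays labelled ATF3-CKO and 3 labelled WT, all biological replicates. In the study's methods, ATF3-CKO mice carry floxed Atf3 and a Cre driven from Lyz2, a gene of the myeloid lineage, and the WT mice are Cre-negative littermates that carry floxed Atf3 too, so carrying the Cre and lacking ATF3 cannot be told apart. The question was what changes in the transcripts of these macrophages when the transcription factor ATF3 is deleted.

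Each value was a log2 intensity, and the array medians lay between 4.22 and 4.42. The targeted gene went against the labels. Atf3 (probe set TC0100003804.mm.1) read 9.20, 9.26 and 9.25 on the arrays labelled ATF3-CKO, against 8.56, 8.46 and 8.38 on the WT arrays, 1.70-fold higher (log2 difference 0.77, SE 0.08, limma adjusted p = 0.00538). The sources used here do not give which part of Atf3 was floxed, so whether this probe set lies inside it is unknown and the labels could not be checked by it. Directions below are therefore those of arrays labelled ATF3-CKO relative to arrays labelled WT. The 8 macrophage markers all averaged above the median of all probe sets (4.32) but spanned a wide range. Cd68 read 18.8 to 19.0 on the arrays labelled ATF3-CKO and 18.7 to 19.0 on the WT arrays. Fcgr1 read 6.78 to 7.28 on the arrays labelled ATF3-CKO and 6.17 to 7.13 on the WT arrays. T cell and B cell markers read between 3.29 and 4.40 throughout. In bulk samples, fewer cells of a type and less RNA per cell cannot be told apart.

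Promoters of the pathway are shown first, because several of these genes moved together and are textbook SREBP-2 targets. The RefSeq table (GRCm38.p6) held a promoter of 300 bases, with 250 before and 50 after a start site, for 20 of the 25 genes with a probe set of their own here (the 24 and Msmo1, described below). No promoter was searched for Sqle, Fdps, Fdft1, Stard4 and Fads1. Shown are the 250 bases before the start site of Hmgcs1 (chr13:119690101-119690350, plus strand), Insig1 (chr5:28071162-28071411, plus), Sc5d (chr9:42264301-42264550, minus) and Cyp51 (chr5:4104698-4104947, minus), all 4 lower on the arrays labelled ATF3-CKO, and of Mvk (chr5:114444019-114444268, plus), which did not pass the test. Capitals mark a sterol regulatory element (TCACNCCAC), an E-box (CACGTG) or the NF-Y box (CCAAT), on either strand.
Hmgcs1: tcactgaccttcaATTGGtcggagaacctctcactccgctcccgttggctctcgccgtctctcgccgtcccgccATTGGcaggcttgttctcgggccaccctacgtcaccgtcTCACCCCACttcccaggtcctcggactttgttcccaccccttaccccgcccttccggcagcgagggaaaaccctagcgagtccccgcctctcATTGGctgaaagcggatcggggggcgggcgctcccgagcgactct
Insig1: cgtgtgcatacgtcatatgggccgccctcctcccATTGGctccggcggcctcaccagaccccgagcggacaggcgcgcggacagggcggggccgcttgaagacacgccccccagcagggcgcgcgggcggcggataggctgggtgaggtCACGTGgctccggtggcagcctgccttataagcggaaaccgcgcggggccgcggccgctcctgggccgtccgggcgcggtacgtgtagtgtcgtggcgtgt
Sc5d: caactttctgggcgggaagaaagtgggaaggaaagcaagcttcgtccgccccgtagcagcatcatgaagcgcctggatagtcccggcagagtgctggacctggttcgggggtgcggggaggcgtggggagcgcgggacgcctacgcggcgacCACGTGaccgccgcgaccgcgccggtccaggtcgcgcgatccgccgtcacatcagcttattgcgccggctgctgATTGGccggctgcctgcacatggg
Cyp51: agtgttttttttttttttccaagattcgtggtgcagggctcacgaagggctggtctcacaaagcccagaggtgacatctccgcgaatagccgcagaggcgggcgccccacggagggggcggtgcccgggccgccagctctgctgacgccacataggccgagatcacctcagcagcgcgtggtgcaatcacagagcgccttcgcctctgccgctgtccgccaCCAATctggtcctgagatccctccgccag
Mvk: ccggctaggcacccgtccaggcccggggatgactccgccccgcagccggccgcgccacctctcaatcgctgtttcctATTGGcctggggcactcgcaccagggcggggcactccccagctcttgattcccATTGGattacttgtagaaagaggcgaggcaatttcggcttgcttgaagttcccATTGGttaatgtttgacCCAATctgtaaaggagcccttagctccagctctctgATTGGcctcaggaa

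The sterol regulatory element, searched as TCACNCCAC on both strands, was found in 1 of the 20 genes, Hmgcs1, as TCACCCCAC starting at position -137 from the start site. It was present in 1.24% of the 32851 promoters of the same length. The E-box CACGTG, which SREBP proteins also bind, was in 5 of the 20 genes (Hsd17b7, Sc5d, Dhcr7, Scap and Insig1), against 7.15% of all promoters. The NF-Y box CCAAT, bound by a partner of SREBP, was in 18 of the 20 genes and 37.4% of all promoters, and the GC box GGGCGG, bound by SP1-type factors, was in 18 and 35.7%. Both were common on either side of the test, and the NF-Y box was in 8 of the 8 lower genes with a promoter and in 10 of the 12 that did not pass the test. Those 8 lower genes include Msmo1 and leave out Sqle, which was lower but had no promoter to search. The palindrome TGACGTCA, to which ATF-family factors bind, was in none of the 20 windows and in 1.79% of all promoters. No one of these letter strings contains another, and a gene with several start sites was counted if any of its windows held the motif. A match is a description of the letters and no match says only that the letters are not in that window.

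Along the pathway, 8 of the 24 measured genes were lower on the arrays labelled ATF3-CKO and none was higher in limma's test (adjusted p under 0.05 over all 65956 probe sets), and at an unadjusted p under 0.05 the counts were 12 lower and 0 higher. Over all probe sets the test called 1108 lower (1.68%) and 773 higher (1.17%). All 24 genes lay above the median level, and among the 17027 genes with 1 symbol above that level 4.52% were lower and 2.02% higher. The 33.3% of pathway genes called lower stood above both backgrounds. The pathway genes were chosen with earlier results of these data known, so that comparison is a description and not a test. At an unadjusted p under 0.05, 2489 of those 17027 genes were lower and 2255 higher. The median log2 difference of the 24 genes was -0.29, against 0.06 for all probe sets and 0.02 for genes above the median level. Of the 24 differences 21 were negative, against 8036 of the 17027. The 3 arrays of each label did not overlap, with the ATF3-CKO label below, for 13 genes (54.2%), against 7.51% of all probe sets and 16.7% of genes above the median level. Insig1 and Sqle were the genes more than 2-fold lower. The count of 8 depended on single arrays: it was 3, 1 and 1 without ATF3-CKO replicate 1, 2 and 3 and 2, 4 and 4 without WT replicate 1, 2 and 3, and it was 3 with trend and robust eBayes.

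**Figure D1:**
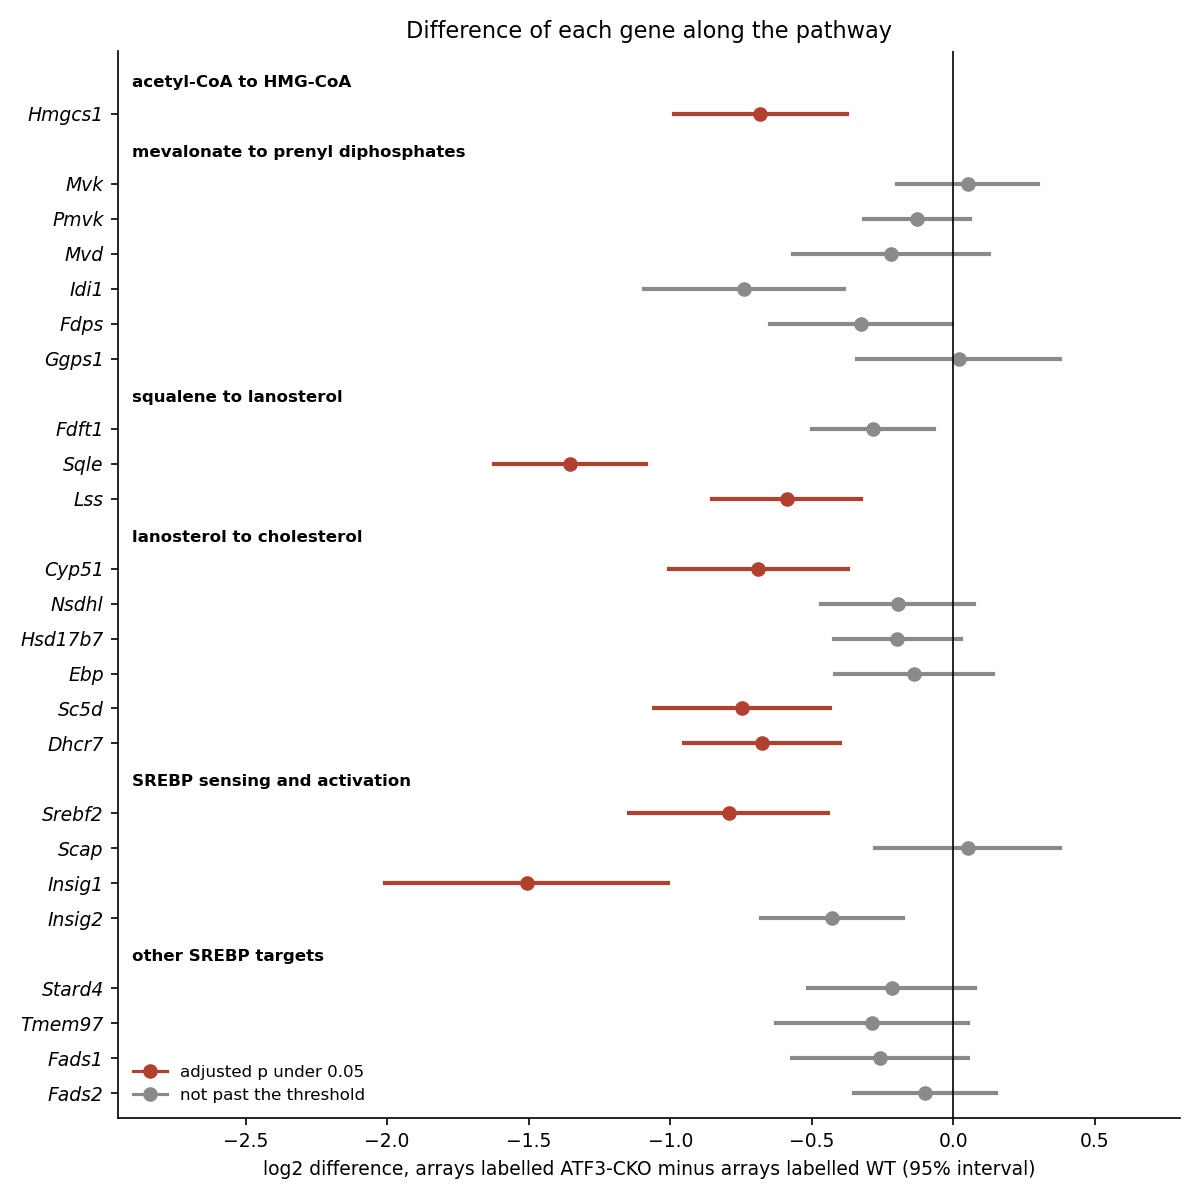
Log2 difference (x axis) of the 24 measured genes in pathway order (y axis), arrays labelled ATF3-CKO minus arrays labelled WT, with 95% intervals from limma, n = 3 arrays each. Red marks the 8 genes past an adjusted p of 0.05, all of them lower, and 3 genes (Mvk, Ggps1 and Scap) lie just above 0.

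The step that forms HMG-CoA was measured through Hmgcs1 (TC1300001353.mm.1), the HMG-CoA synthase of the cytosol. Hmgcs1 read 11.22, 10.96 and 11.17 on the arrays labelled ATF3-CKO, against 11.56, 11.93 and 11.91 on the WT arrays. Every array labelled ATF3-CKO lay below every WT array, with WT replicate 1 nearest to them. The gene was 1.60-fold lower (log2 difference -0.68, SE 0.13, adjusted p = 0.0441). This call was narrow: it held without WT replicate 1 (0.0410) and was lost without ATF3-CKO replicate 1, 2 or 3 (0.0825, 0.132 and 0.136), or without WT replicate 2 or 3 (0.0900 and 0.0763). Acat2, whose enzyme joins acetyl-CoA units before that step, had no probe set annotated with it, and the reduction of HMG-CoA to mevalonate was not analysed here.

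From mevalonate to the prenyl diphosphates, none of the 6 genes passed the test. Idi1 (TC1300000045.mm.1), the isomerase of isopentenyl diphosphate, came closest. Its values were 7.00, 6.93 and 7.41 on the arrays labelled ATF3-CKO, against 7.67, 7.88 and 8.00 on the WT arrays. The groups did not overlap, and ATF3-CKO replicate 3 stood nearest to the WT arrays. The log2 difference was -0.74 (SE 0.15, 1.67-fold lower, adjusted p = 0.0540), and the adjusted p was 0.0410 after quantile normalization, just under 0.05 after median-centring of the arrays, 0.0405 among probe sets above the median level, 0.0398 among those with 1 symbol, and 0.0457 with the replicate number as a block. It stayed above 0.05 without each array in turn (0.0501 to 0.156), with trend and robust eBayes (0.0691) and with array weights (0.0640).

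Around Idi1 the differences were smaller. Mvk, mevalonate kinase, had a log2 difference of 0.05 (95% interval -0.20 to 0.30, adjusted p = 0.848). Its values, 4.75 to 5.08, lay not far above the median of all probe sets (4.32). For Pmvk, the kinase that follows mevalonate kinase, the difference was -0.13 (adjusted p = 0.467). Its 2 sets of arrays did not overlap, but the gap between them was only 0.0065. Mvd, the decarboxylase that makes isopentenyl diphosphate, differed by -0.22 (adjusted p = 0.503). These 3 consecutive enzymes therefore showed no difference past the threshold at n = 3 per label, with intervals that for Mvk and Pmvk reach no lower than -0.20 and -0.32. The 95% interval of Mvd was wider, -0.56 to 0.13.

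The branch point held a similar contrast. Fdps, farnesyl diphosphate synthase, read 6.50, 6.94 and 6.98 on the arrays labelled ATF3-CKO, against 7.20, 7.12 and 7.08 on the WT arrays (log2 difference -0.33, SE 0.14, adjusted p = 0.275). The WT arrays lay close together above all 3 others, and ATF3-CKO replicate 1 was the lowest. Ggps1, geranylgeranyl diphosphate synthase on the branch that serves prenylation, had a log2 difference of 0.02 (95% interval -0.34 to 0.38, adjusted p = 0.962).

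From squalene to lanosterol, 2 of the 3 genes were lower. Fdft1, squalene synthase, read 7.50, 7.63 and 7.75 on the arrays labelled ATF3-CKO, against 7.94, 7.96 and 7.84 on the WT arrays. The groups did not overlap, and the log2 difference of -0.28 (SE 0.09) did not pass the adjusted test (adjusted p = 0.164). Sqle (TC1500000432.mm.1), squalene monooxygenase, which adds oxygen to squalene and is a rate-limiting enzyme of the late pathway, had the smallest p of the 24 genes. Sqle read 8.06, 8.21 and 8.39 on the arrays labelled ATF3-CKO, against 9.60, 9.69 and 9.44 on the WT arrays. The gap between the nearest arrays of the labels was larger than the whole spread within either label. It was 2.56-fold lower (log2 difference -1.35, SE 0.11, adjusted p = 0.00219), and its call held without each array in turn (adjusted p = 0.00590 to 0.0193) and under the other settings tried. Among the 17027 genes above the median level, 1.25% had a difference at or below that of Sqle.

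Lss (TC1000000744.mm.1), lanosterol synthase, which closes the sterol rings, read 6.82, 6.72 and 6.82 on the arrays labelled ATF3-CKO, against 7.53, 7.44 and 7.16 on the WT arrays. The arrays labelled ATF3-CKO lay within 0.10 of each other, below all WT arrays, of which replicate 3 was the lowest. The gene was 1.504-fold lower (log2 difference -0.59, SE 0.11, adjusted p = 0.0438). Its call held without WT replicate 3 (0.0220), and was lost without ATF3-CKO replicate 1, 2 or 3 (0.0969, 0.137 and 0.142), without WT replicate 1 or 2 (0.138 and 0.0926), and after median-centring (0.0549).

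**Figure D2:**
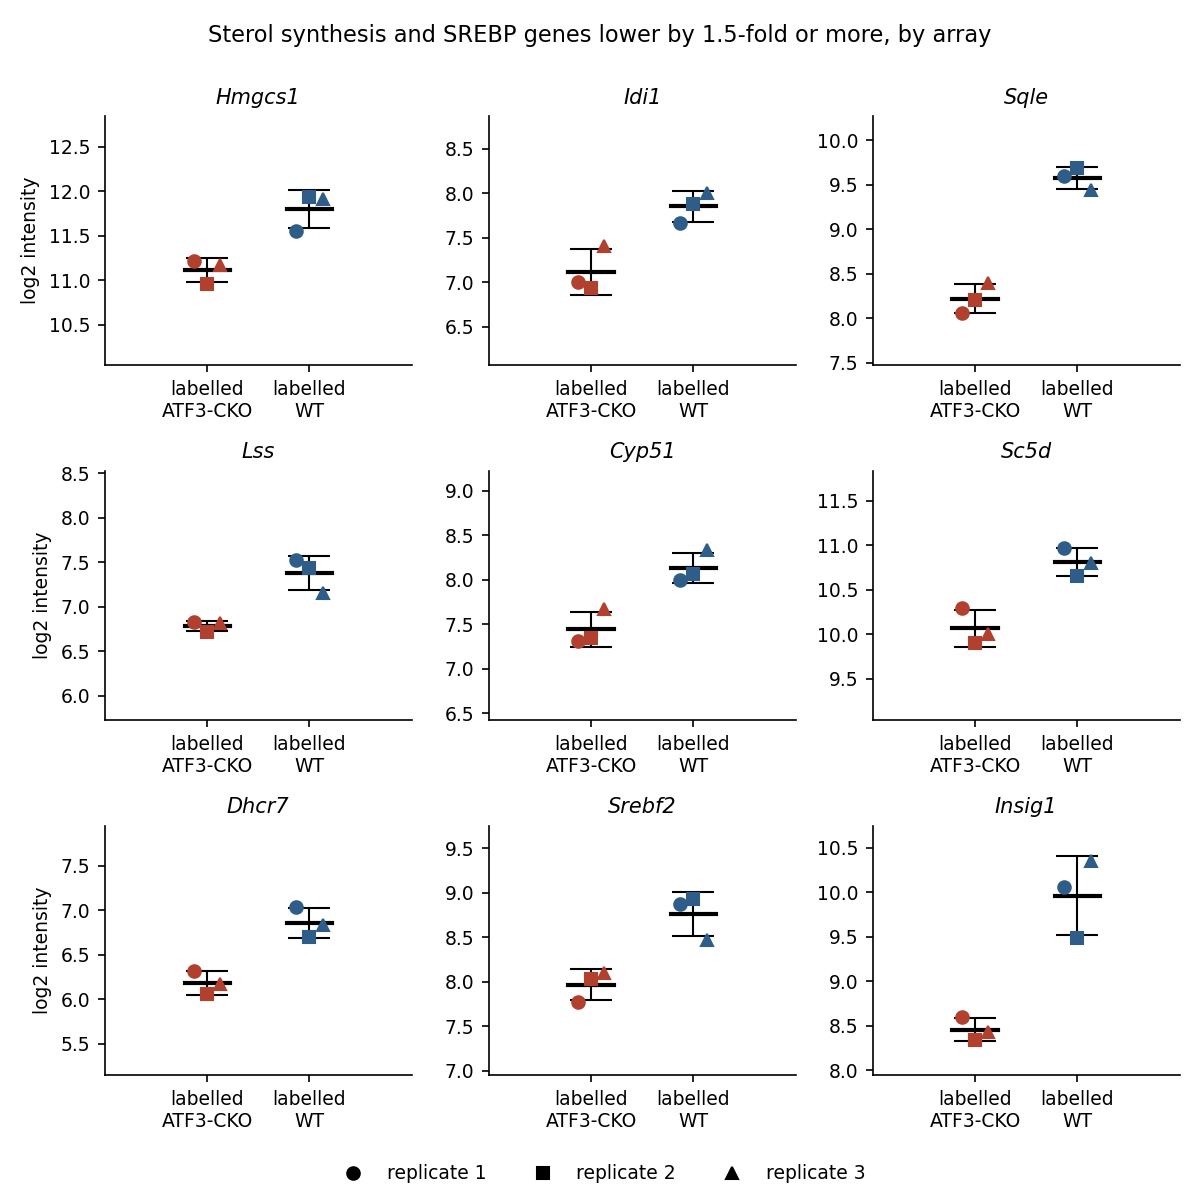
Log2 intensity (y axis) of the 9 pathway genes at least 1.5-fold lower, on each array labelled ATF3-CKO (left, red) and each array labelled WT (right, blue); bars are the mean and SD, n = 3 each, symbols give the replicate number, and all panels span the same number of log2 units. In every panel the 3 arrays labelled ATF3-CKO lie below the 3 WT arrays; Idi1 had an adjusted p of 0.0540 and the others were under 0.05.

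From lanosterol to cholesterol, 3 of the 6 measured genes were lower. Cyp51 (TC0500001894.mm.1), the lanosterol demethylase that opens this stretch, read 7.31, 7.34 and 7.67 on the arrays labelled ATF3-CKO, against 8.00, 8.07 and 8.33 on the WT arrays. The groups were apart, with replicate 3 the highest under both labels. Cyp51 was 1.61-fold lower (log2 difference -0.69, SE 0.13, adjusted p = 0.0471), and no 5 of the 6 arrays kept the call: the adjusted p was 0.115, 0.148 and 0.0649 without ATF3-CKO replicate 1, 2 and 3, and 0.102, 0.0735 and 0.0694 without WT replicate 1, 2 and 3.

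The demethylation enzymes that follow gave smaller differences where they were measured by the rule. Nsdhl and Hsd17b7, both of which act in removing the methyl groups of the sterol ring, had log2 differences of -0.20 each (adjusted p = 0.440 and 0.341), and Ebp, the sterol isomerase, had -0.14 (adjusted p = 0.610). In each of these 3 the arrays of the labels overlapped. Msmo1, the methylsterol monooxygenase of the same stretch, was listed but fell outside the rule, because its probe set carries its older symbol Sc4mol as a second name. That probe set (TC0800002313.mm.1) read 7.63, 7.33 and 7.64 on the arrays labelled ATF3-CKO, against 8.20, 8.15 and 8.27 on the WT arrays. It was 1.59-fold lower with no overlap (log2 difference -0.67, SE 0.11, adjusted p = 0.0250), and it would make the count 9 of 25. The call was lost without ATF3-CKO replicate 1 or 3 (0.0533 and 0.0778) and without WT replicate 1 or 3 (0.0968 and 0.0529). Tm7sf2, a sterol reductase, shares its probe set with Vps51 and was not read.

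The last reactions were lower together. Sc5d (TC0900002115.mm.1), the sterol desaturase, read 10.29, 9.90 and 10.01 on the arrays labelled ATF3-CKO, against 10.97, 10.66 and 10.80 on the WT arrays (1.68-fold lower, log2 difference -0.75, SE 0.13, adjusted p = 0.0348). Dhcr7 (TC0700002102.mm.1), whose enzyme reduces the precursor made by Sc5d, read 6.32, 6.05 and 6.17 on the arrays labelled ATF3-CKO, against 7.04, 6.70 and 6.83 on the WT arrays (1.60-fold lower, log2 difference -0.67, SE 0.12, adjusted p = 0.0329). Both pairs of groups were apart, and within each label replicate 1 was the highest and replicate 2 the lowest for both genes. The Sc5d call was lost without ATF3-CKO replicate 2 or 3 (0.113 and 0.137) and without WT replicate 1 or 3 (0.119 and 0.0610). That of Dhcr7 was lost without ATF3-CKO replicate 1, 2 or 3 (0.0542, 0.112 and 0.128) and without WT replicate 1 or 3 (0.102 and 0.0571).

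The sensing genes divided. Insig1 (TC0500000260.mm.1), which retains the SCAP and SREBP-2 complex and is itself an SREBP-2 target, had the largest difference of the 24 genes. It read 8.59, 8.34 and 8.43 on the arrays labelled ATF3-CKO, against 10.05, 9.48 and 10.35 on the WT arrays. The WT arrays spread more widely, with replicate 2 the lowest, yet all 3 lay well above the others. Insig1 was 2.84-fold lower (log2 difference -1.51, SE 0.21, adjusted p = 0.0158), and 0.951% of the genes above the median level had a difference at or below it. Its call was lost without ATF3-CKO replicate 2 or 3 (0.0788 and 0.0836) or WT replicate 1 (0.0712).

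Srebf2 (TC1500000742.mm.1), which encodes SREBP-2, read 7.77, 8.04 and 8.10 on the arrays labelled ATF3-CKO, against 8.87, 8.93 and 8.47 on the WT arrays. The groups were apart, and WT replicate 3 was nearest to the arrays labelled ATF3-CKO. The transcript was 1.73-fold lower (log2 difference -0.79, SE 0.15, adjusted p = 0.0428). It kept its call without WT replicate 3 (0.0232) and lost it without ATF3-CKO replicate 1, 2 or 3 (0.102, 0.123 and 0.117), without WT replicate 1 or 2 (0.145 and 0.0837), and after quantile normalization (0.0555). Transcript level does not report how much SREBP-2 is processed, which the arrays did not measure.

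Scap, the escort protein, read 8.22, 8.19 and 8.22 on the arrays labelled ATF3-CKO, against 8.43, 8.18 and 7.87 on the WT arrays. The WT values lay on both sides of the others, which were almost equal among themselves, and the log2 difference was 0.05 (95% interval -0.28 to 0.38, adjusted p = 0.886). Insig2, the second INSIG gene, read 8.78, 8.52 and 8.45 on the arrays labelled ATF3-CKO, against 9.02, 8.95 and 9.06 on the WT arrays. The groups did not overlap, and the log2 difference of -0.43 (SE 0.11, 1.35-fold lower, adjusted p = 0.0897) did not pass the test. With array weights its adjusted p was 0.0314.

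None of the 4 other SREBP targets passed the test. The log2 difference was -0.22 for Stard4, a carrier that moves sterol between membranes (adjusted p = 0.430), and -0.29 for Tmem97, a sterol-regulated membrane protein of the endoplasmic reticulum (adjusted p = 0.365). For the fatty acid desaturase genes Fads1 and Fads2 it was -0.26 and -0.10 (adjusted p = 0.375 and 0.688). The arrays of the labels overlapped for all 4 genes. All 4 differences were negative and inside the range of -0.29 to -0.10.

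Seen by array, the pathway lay lower on each of the arrays labelled ATF3-CKO. The median over the 24 genes, each set against its own WT mean, was -0.30, -0.30 and -0.18 on the arrays labelled ATF3-CKO, against 0.02, 0.04 and -0.06 on the WT arrays. ATF3-CKO replicate 3 was the nearest to the WT arrays and WT replicate 3 the lowest of its label. The lowest of the 6 values of a gene fell on ATF3-CKO replicate 1, 2 and 3 for 8, 11 and 1 genes, and on WT replicate 3 for the other 4. The highest fell on a WT array for 23 of the 24 genes, Ggps1 being the exception.

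**Figure D3:**
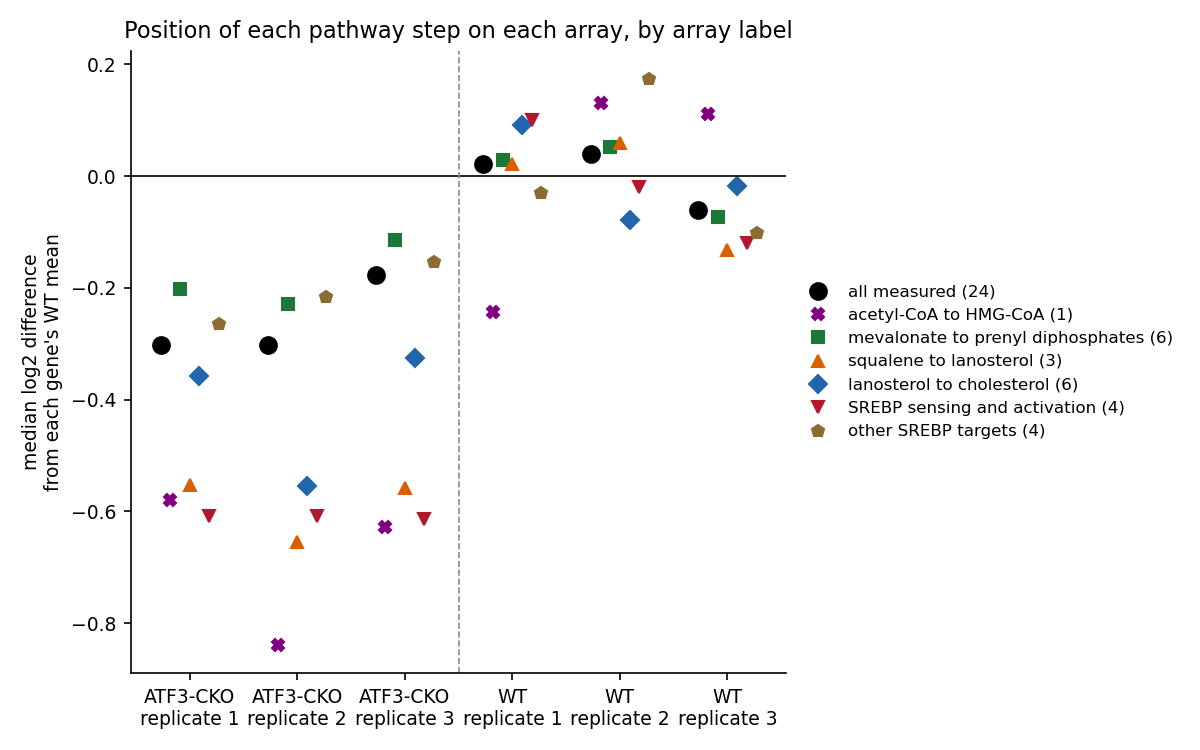
Median log2 difference from each gene's WT mean (y axis) for all 24 genes and for each pathway step, on each of the 6 arrays (x axis), with arrays labelled ATF3-CKO left of the dashed line and arrays labelled WT right of it. Counts in the legend are the genes per step, and the median over all 24 genes was -0.30, -0.30 and -0.18 on the arrays labelled ATF3-CKO.

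The place of the 24 genes among all genes is shown by their differences. Insig1 and Sqle lay in the lower tail, at 0.951% and 1.25% of the genes above the median level, and Srebf2 at 3.49%. Mvk and Scap both lay at 56.1%, that is, in the middle of all genes.

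**Figure D4:**
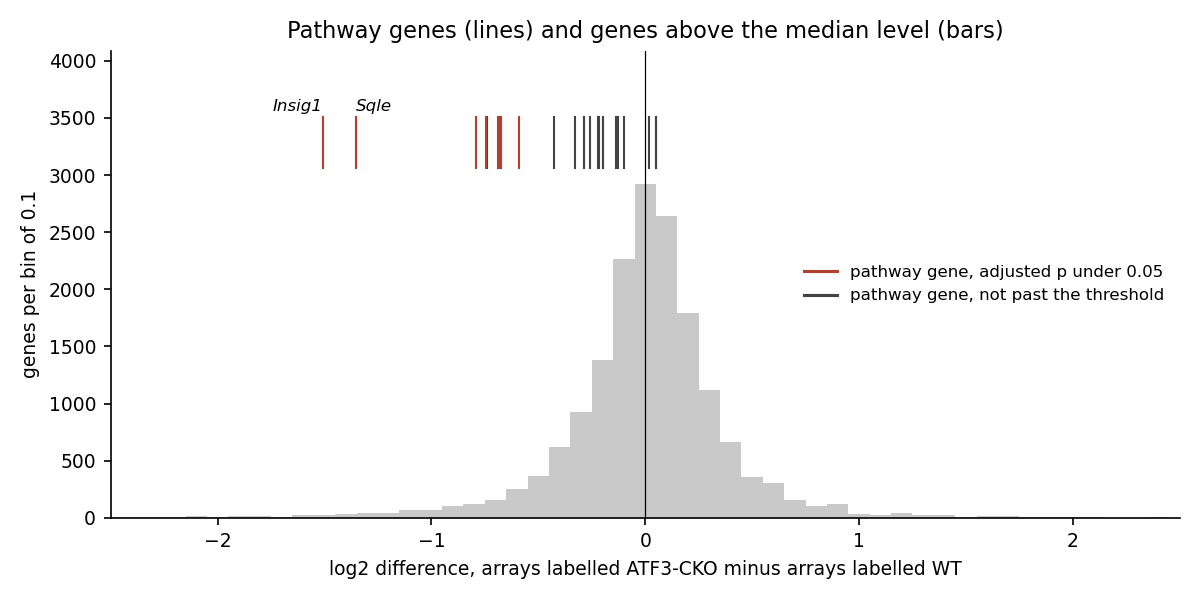
Number of genes per bin of 0.1 (y axis, grey bars) by log2 difference between arrays labelled ATF3-CKO and arrays labelled WT (x axis), for the 17027 genes above the median level, with a line above for each of the 24 pathway genes (red, adjusted p under 0.05). The axis runs from -2.5 to 2.5 and leaves out 49 genes below and 13 above it; the 8 red lines lie at -0.59 or lower.

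Genes next to the pathway were read from further lists. Of 13 measured other sterol and SREBP genes (20 listed), 1 was lower, 0 were higher, and the median log2 difference was -0.15. Among genes above the median level 4.52% were lower, and 1 call in a list this small was not read as a result about the list. The one called was Marchf6, a ubiquitin ligase of the endoplasmic reticulum that degrades squalene monooxygenase. Marchf6 read 12.40, 12.19 and 12.17 on the arrays labelled ATF3-CKO, against 13.09, 13.11 and 12.71 on the WT arrays (log2 difference -0.72, adjusted p = 0.0401). Its call held without WT replicate 3 (0.0197) and was lost without ATF3-CKO replicate 1, 2 or 3 (0.0637, 0.134 and 0.152), without WT replicate 1 or 2 (0.138 and 0.0807), after quantile normalization (0.0562) and after median-centring (0.0537).

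Fatty acid synthesis genes, the arm served by SREBP-1, gave 0 called of 10 measured, with 2 of them lower at an unadjusted p under 0.05, none higher, and a median of -0.22. Of 10 prenylation and isoprenoid genes 0 were called, with 2 lower at an unadjusted p under 0.05 and a median of -0.04. Among all genes above the median level, 2489 of 17027 were lower at that unadjusted p. Among 9 genes of sterol uptake, lysosomal exit and esterification the median was 0.02, and 1 was lower, against 4.52% of genes above the median level. That gene was Lrp1, an endocytic receptor, which read 13.14, 13.43 and 13.10 on the arrays labelled ATF3-CKO, against 14.22, 14.34 and 13.88 on the WT arrays (1.89-fold lower, log2 difference -0.92, adjusted p = 0.0246). The groups did not overlap, and the call was lost without ATF3-CKO replicate 1 or 3 (0.0761 and 0.116) or WT replicate 1 (0.0986).

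Some liver X receptor targets and oxysterol genes ran the other way. Of 9 measured, 4 were higher and 0 lower, against 2.02% higher among genes above the median level. Of the 9 differences 8 were positive, against 8991 of the 17027 genes above that level, and the median was 0.33. Abcg1, Lpcat3 and Nr1h3 differed by 0.13, 0.12 and 0.13, with overlapping arrays (adjusted p = 0.800, 0.691 and 0.583). Abca1, the transporter that exports cholesterol to apolipoproteins, read 13.32, 12.92 and 12.94 on the arrays labelled ATF3-CKO, against 11.40, 11.92 and 11.33 on the WT arrays. The groups were a full log2 unit apart at their nearest arrays. Abca1 was 2.85-fold higher (log2 difference 1.51, SE 0.18, adjusted p = 0.00917), and its call held without each array in turn (0.00362 to 0.0479).

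Mylip, a ubiquitin ligase that degrades lipoprotein receptors, read 12.77, 12.15 and 12.16 on the arrays labelled ATF3-CKO, against 10.50, 11.48 and 10.86 on the WT arrays (2.67-fold higher, log2 difference 1.42, adjusted p = 0.0466). Cyp27a1, which makes an oxysterol in mitochondria, read 8.09, 7.65 and 7.66 on the arrays labelled ATF3-CKO, against 6.48, 7.09 and 6.38 on the WT arrays (2.22-fold higher, log2 difference 1.15, adjusted p = 0.0390). Ch25h, the cholesterol hydroxylase that makes another oxysterol, read 4.60, 4.63 and 4.77 on the arrays labelled ATF3-CKO, against 4.20, 4.02 and 4.09 on the WT arrays (1.48-fold higher, log2 difference 0.57, adjusted p = 0.0231), with its WT values below the median level of all probe sets. In all 3 genes the arrays labelled ATF3-CKO lay above every WT array, and WT replicate 2 was the nearest to them for Mylip and Cyp27a1. Mylip and Cyp27a1 passed without WT replicate 2 (0.0156 and 0.00976) and missed the threshold without each of the other 5 arrays (0.0800 to 0.125 for Mylip and 0.0667 to 0.134 for Cyp27a1) and after median-centring (0.0777 and 0.0779), and Mylip also missed it after quantile normalization (0.0688). Ch25h passed without WT replicate 3 (0.0495) and missed it without each of the other 5 (0.0530 to 0.106). The number of higher genes in the list was 1 without ATF3-CKO replicate 1, 2 or 3 in turn, 1, 3 and 2 without WT replicate 1, 2 and 3, 3 after quantile normalization and 2 after median-centring.

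**Figure D5:**
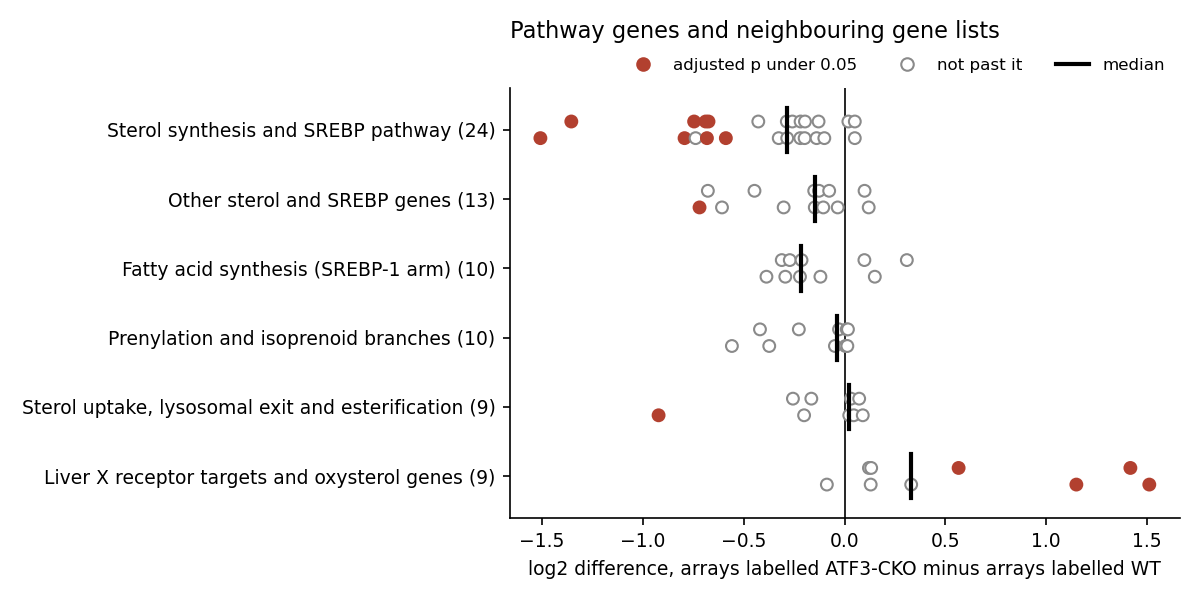
Log2 difference (x axis), arrays labelled ATF3-CKO minus arrays labelled WT, of each measured gene in the pathway and in 5 neighbouring lists (y axis, number measured in brackets); filled points passed an adjusted p of 0.05 and black lines are medians. The pathway median is -0.29 and that of the liver X receptor list 0.33.

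Other genes moved with the pathway on the same arrays. Of 7 measured proliferation markers 4 were lower (3 without ATF3-CKO replicate 1, 2 or 3), and all 7 differences were negative with no overlap. Among genes above the median level 4.52% were called lower, and 16.7% had no overlap with the ATF3-CKO label below. The sum of the log2 values of the 7 proliferation markers was 38.6 to 40.8 on the arrays labelled ATF3-CKO, against 47.8 to 51.6 on the WT arrays. Mki67, a marker of cycling cells, read 7.64, 8.12 and 8.45 on the arrays labelled ATF3-CKO, against 10.44, 11.42 and 10.90 on the WT arrays. Of 10 neutrophil markers 6 were lower (sums 63.4 to 74.6 on the arrays labelled ATF3-CKO and 90.8 to 94.5 on the WT arrays; 3 without ATF3-CKO replicate 2 or WT replicate 1), as were 2 of 5 monocyte markers (28.1 to 30.8 against 35.3 to 35.5 on the WT arrays) and 4 of 8 osteoclast markers (57.3 to 57.7 against 68.1 to 70.3 on the WT arrays). Ltf, a granule gene of maturing neutrophils, read 5.40, 6.14 and 6.92 on the arrays labelled ATF3-CKO, against 11.45, 11.07 and 11.34 on the WT arrays (log2 difference -5.13, adjusted p = 0.000946). S100a9, a calcium-binding protein abundant in neutrophils and monocytes, read 9.62, 11.55 and 12.42 on the arrays labelled ATF3-CKO, against 15.90, 15.71 and 16.47 on the WT arrays (log2 difference -4.83, adjusted p = 0.0132), and Ly6c2, a surface marker of inflammatory monocytes, differed by -4.14 (adjusted p = 0.00313). These transcripts were bright on the WT arrays, whereas Elane and Mpo, granule genes of neutrophil precursors, and Ccr2, a defining receptor of monocytes, read under 4.32 on all 6 arrays. Ly6g, another neutrophil marker, read 4.07, 4.08 and 4.05 on the arrays labelled ATF3-CKO, against 4.44, 4.18 and 4.49 on the WT arrays. Its adjusted p was 0.179. Plac8, a listed monocyte marker, read between 3.14 and 3.58 throughout. No fibroblast marker of 5 was called (sums 27.3 to 32.5 on the arrays labelled ATF3-CKO and 25.5 to 27.5 on the WT arrays). All 5 fibroblast differences were positive, with a median of 0.87. At limma's unadjusted p under 0.05, 2 of the 5 were higher, against 2255 of the 17027 genes above the median level. Of 8 macrophage markers 2, Mertk and C1qa, were higher (sums 106.8 to 108.2 on the arrays labelled ATF3-CKO and 101.0 to 107.9 on the WT arrays). No macrophage marker was higher without ATF3-CKO replicate 1, 2 or 3 or WT replicate 1 or 3, nor after median-centring, and 4 were without WT replicate 2. Of the 8 macrophage marker differences 6 were positive and 2 negative. Adgre1 was the lowest of them (log2 difference -0.77, adjusted p = 0.263, with overlap). Without WT replicate 3, 1 macrophage marker was lower. The part of these cell types and of proliferation in the lower sterol genes was not tested.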

How the data were processed

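The authors computed the deposited log2 values from scanned intensities by RMA (robust multichip average) in Affymetrix Expression Console, with global scaling per the study's methods. No version, genome build or annotation release is given in the sources used here. The labels name the Clariom D mouse array and the methods Clariom S. The table held 72688 probe sets, of which 6732 controls were left out. RMA values have no read depth, and precision is limited by there being 3 arrays per label. The 23 background control probe sets had a median of 2.74.

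Gene symbols came from the platform annotation: of 65956 probe sets, 30646 had 1 symbol, 2168 several and 33142 none. Each probe set was fitted by lmFit and eBayes of limma 3.58.1 in R 4.3.3, with a two-sided test of ATF3-CKO minus WT and the group as the only term. Benjamini-Hochberg adjustment ran over all 65956. Adjusted p-values in the text are from this fit. With 3 arrays per label an exact permutation test reaches p = 0.1 at best and was not used. The alternatives were quantile normalization, median-centring, 2 filters, the replicate block, each array left out, trend and robust eBayes, array weights and the mean of a gene's probe sets. All 27 listed genes are named, with every array's value for those past the threshold, at least 1.5-fold different or in the sensing machinery, and for called genes of the 5 neighbouring lists; the cell type and proliferation markers are given by counts and sums with single examples. Motifs were exact matches in RefSeq promoters. The members and lists were chosen with earlier results of these data known, so no list was tested as a set.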

Additional observations from a re-analysis of the deposited data

How the results depend on the processing

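The 21 pathway genes with a negative difference kept that sign under all 15 alternatives, but several of these could not change it. The filters, the replicate block, and trend and robust eBayes left each difference as in the main fit. Adding the Msmo1 probe set reused the main fit, and averaging a gene's probe sets could move only genes with several. Signs were open to change for all genes under quantile normalization, median-centring, array weights and leaving arrays out. Of 360 gene and alternative pairs, including those that could not change sign, 300 kept direction and side of the threshold. Of the rest, 43 lost the call, 6 gained it and 11 changed sign, all 11 in Mvk, Ggps1 and Scap, whose differences lay near 0. Mvk became -0.037 after quantile normalization and -0.034 after median-centring, Ggps1 became -0.030 and -0.066, and Scap became -0.0031 and -0.034, and -0.10 with array weights. Leaving out each array in turn gave -0.041 to 0.13 for Mvk, -0.15 to 0.16 for Ggps1 and -0.092 to 0.18 for Scap. The number of pathway genes lower was 1 to 4 without each array in turn, with Sqle called each time, and 3 (Sqle, Insig1 and Dhcr7) with trend and robust eBayes. It was 8 to 9 under the other alternatives but the block, and 9 with the Msmo1 probe set, an alternative chosen after seeing the data. No pathway gene was higher under any alternative. The median difference was -0.37 after median-centring and -0.39 to -0.24 without each array in turn. Over all probe sets, 773 higher and 1108 lower became 447 and 1297 after median-centring, 3119 and 2284 with array weights, and 141 to 982 and 402 to 1044 without each array in turn. Fewer arrays were fitted when 1 was left out; other causes of these changes were not tested.

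The labels number the replicates and do not say whether equal numbers pair the samples. Deviations of same-numbered arrays correlated at 0.03, -0.09 and -0.07, which does not settle it. With the replicate number as a block, 6 pathway genes were lower (Hmgcs1 0.0892, Lss 0.0820 and Srebf2 0.0815 lost the call and Idi1 gained it) and 515 probe sets were higher and 769 lower in all.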

Other observations

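Fads2 had a second probe set, below the median level of all probe sets on average, with a log2 difference of 0.03 between arrays labelled ATF3-CKO and arrays labelled WT (95% interval -0.37 to 0.43, adjusted p = 0.950). Apoe, the apolipoprotein that accepts cholesterol from macrophages, read 16.94, 16.89 and 16.94 on the arrays labelled ATF3-CKO, against 16.60, 16.68 and 16.50 on the WT arrays, without overlap, and its log2 difference of 0.33 did not pass the test (adjusted p = 0.0849). Apoe was picked after its values were seen.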
